A study of Homo sapiens with 6 samples.

Results

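The comparison set cells treated with E6R against cells treated with TSA, in 2 libraries of each. Libraries were taken by their titles, and barcodes counted as cells when they showed 500 or more genes and took no more than 20% of their UMIs (unique molecular identifiers, the counted molecules) from the 13 mitochondrial genes. This gave 6837 E6R cells and 5759 TSA cells, 12596 of the 17589 cells of the series. The line was SK-N-BE(2)-C, a clonal subline of a human neuroblastoma, so every group is a model of 1 tumour clone. Libraries were made with Seq-Well S3, in which each cell settles in a well together with a bead that tags its RNA. TSA (trichostatin A) inhibits the enzymatic activity of histone deacetylases (HDACs). The title of the series names an inhibitor of the HDAC complex that is not enzymatic, and E6R is the treatment besides TSA and DMSO, the solvent control, which also had 2 libraries. Doses, exposure times and the chemical structure of E6R are not given in the sources used here, so a matched exposure cannot be assumed.

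HDACs remove acetyl groups from histones and other proteins. The class I enzymes HDAC1, HDAC2 and HDAC3 work as the catalytic core of corepressor complexes (NuRD, CoREST, SIN3 and NCoR/SMRT), which hold them on chromatin. A hydroxamate such as TSA binds in the catalytic pocket and raises acetylation throughout the genome. Neuroblastoma arises from sympathetic precursor cells, and its adrenergic state is kept by a small set of transcription factors together with the genes of catecholamine synthesis.

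The library sums over cells were 15781024 and 26180262 UMIs for E6R replicates 1 and 2, 14282282 and 13318200 for TSA, and 4206366 and 4793493 for DMSO. All 12 neuroblast markers checked were above 20 CPM (UMIs scaled to a common library size) in some library, and immune markers summed to at most 17.6 CPM. The 6 fibroblast markers summed to 28.1 to 325.5 CPM under E6R and 92.0 to 164 CPM under TSA, with DCN the highest at 165 CPM in 1 library. The 6 epithelial markers summed to 51.9 to 100.8 CPM under E6R, 13.3 to 14.9 under TSA and 31.2 to 81.7 under DMSO, nearly all from KRT19, the 1 marker of the 6 above 20 CPM. The 5 endothelial markers reached 65.8 CPM under E6R and 11.5 under TSA. The part of these markers in the results was not tested. Mitochondrial genes held 1.55% and 1.51% of UMIs in the E6R sums and 6.08% and 9.71% in the TSA sums. The deepest 1% of cells held 22.5% of the UMIs of E6R replicate 2, more than in the other libraries. Pairs of libraries shared between 11 and 58 cell barcodes, at most 2.11% of the smaller library. Sums over cells do not tell fewer expressing cells from less RNA per cell. The deposited name of TSA replicate 2 carries a mark (reWTA) that the other names lack and whose meaning is not given.

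The question put to the data was which genes and pathways differ between E6R, taken as the inhibitor named as not enzymatic in the series title, and a catalytic inhibitor. Of 16763 genes tested, 6408 (38.2%) differed between E6R and TSA at an adjusted p under 0.05 in edgeR's quasi-likelihood test. Under E6R 3141 genes (18.7%) were higher and 3267 (19.5%) were lower, and with total counts in place of TMM scaling the shares were 22.3% and 15.9%. A fitted difference of 4-fold or more was reached by 894 of the higher and 1402 of the lower genes, and one of 16-fold or more by 112 and 371. Among the called genes, 72 higher and 660 lower ones had a mean under 1 CPM in DMSO. The fold counts are not matched for level, so nothing is read from the larger number of falls. Every called gene had both E6R libraries on the same side of both TSA libraries, as did 12166 of all genes tested. With 2 libraries against 2, an exact permutation test of a single gene cannot go below p = 0.333, so the calls rest on the spread shared across genes.

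The levels under DMSO, measured in libraries that also enter the fit, place both treatments. Against DMSO, TSA gave 4975 calls (29.7%) and E6R gave 0 (0%) in edgeR. For E6R against DMSO, 2913 genes had an unadjusted p under 0.05 and DESeq2 called 338. Genes called higher under E6R than TSA had a median log2 fold change of -1.16 for TSA against DMSO and 0.35 for E6R against DMSO. For genes called lower the medians were 1.38 and -0.27. These contrasts share libraries with the comparison, so the values stand side by side as a description. Over all genes tested the median log2 fold change of E6R against TSA was -0.09. It became 0.08 with total counts in place of TMM scaling, so values near 0 have no fixed sign.

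The shares of calls in each direction are given by the level under DMSO. Among 1826 genes under 1 CPM in DMSO, 36.1% were lower and 3.94% higher under E6R than under TSA. Such genes can have entered the test through treated libraries alone, since the low-count filter does not ask for counts in every group. Between 1 and 10 CPM, 9.65% of 5710 genes were higher and 17.2% lower. Between 10 and 100 CPM, 26.4% of 7276 genes were higher and 18.4% lower. Between 100 and 1000 CPM, 31.2% of 1863 genes were higher and 14.2% lower. Above 1000 CPM, 18.2% of 88 genes were higher and 26.1% lower. More genes were higher than lower between 10 and 1000 CPM, and more were lower than higher in the class above that and in the class of 1 to 10 CPM; nothing is read from the class under 1 CPM.

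Among genes with a mean of at least 20 CPM over the 4 libraries, the 3 largest rises and the 3 largest falls with a listed promoter are shown with it, because genes called in opposite directions held the boxes described here at different shares. SLC6A2, AL606500.1 and AL356804.1, whose differences were larger than some of these, are named only. The promoters run from 250 bases before to 50 bases after the annotated start and come from RefSeq (GRCh38.p14), written 5′ to 3′ on the gene's strand. Capitals mark GC boxes, the letters GGGCGG on either strand (CCGCCC), which Sp1-family factors are known to bind. The first group of 3 was higher under E6R and the second group of 3 was lower.
EDNRA, chr4:147480847-147481146, plus strand: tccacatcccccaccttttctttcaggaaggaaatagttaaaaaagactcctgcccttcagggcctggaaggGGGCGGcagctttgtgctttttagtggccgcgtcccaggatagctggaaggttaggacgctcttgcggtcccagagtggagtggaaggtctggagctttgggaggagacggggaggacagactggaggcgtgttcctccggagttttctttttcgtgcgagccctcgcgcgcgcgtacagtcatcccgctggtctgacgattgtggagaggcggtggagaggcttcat
CCDC102A, chr16:57536522-57536821, minus strand: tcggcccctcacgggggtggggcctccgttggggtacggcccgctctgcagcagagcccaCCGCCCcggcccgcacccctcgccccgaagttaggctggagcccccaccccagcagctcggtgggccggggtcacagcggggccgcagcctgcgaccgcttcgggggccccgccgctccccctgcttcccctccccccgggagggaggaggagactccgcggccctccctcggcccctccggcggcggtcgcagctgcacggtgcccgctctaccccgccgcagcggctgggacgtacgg
TLR4, chr9:117704153-117704452, plus strand: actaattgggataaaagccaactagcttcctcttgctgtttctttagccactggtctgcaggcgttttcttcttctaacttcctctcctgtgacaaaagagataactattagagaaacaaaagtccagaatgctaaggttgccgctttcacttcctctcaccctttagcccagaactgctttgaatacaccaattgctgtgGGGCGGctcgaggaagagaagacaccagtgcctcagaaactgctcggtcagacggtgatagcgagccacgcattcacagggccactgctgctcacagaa
SLC17A7, chr19:49441478-49441777, minus strand: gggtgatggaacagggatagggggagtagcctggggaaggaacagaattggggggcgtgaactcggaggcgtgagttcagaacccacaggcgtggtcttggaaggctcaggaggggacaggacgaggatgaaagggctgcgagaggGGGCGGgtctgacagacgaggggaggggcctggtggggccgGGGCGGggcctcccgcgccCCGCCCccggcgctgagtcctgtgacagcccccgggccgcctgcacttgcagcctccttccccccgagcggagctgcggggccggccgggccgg
RTBDN (the first of 3 listed starts), chr19:12835379-12835678, minus strand: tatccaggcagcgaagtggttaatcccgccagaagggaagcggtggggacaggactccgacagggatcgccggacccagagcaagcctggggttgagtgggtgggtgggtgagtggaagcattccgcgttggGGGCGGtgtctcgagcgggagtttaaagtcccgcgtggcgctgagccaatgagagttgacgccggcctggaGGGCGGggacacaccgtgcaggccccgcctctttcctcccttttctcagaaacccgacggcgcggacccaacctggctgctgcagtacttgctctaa
PLIN5, chr19:4535175-4535474, minus strand: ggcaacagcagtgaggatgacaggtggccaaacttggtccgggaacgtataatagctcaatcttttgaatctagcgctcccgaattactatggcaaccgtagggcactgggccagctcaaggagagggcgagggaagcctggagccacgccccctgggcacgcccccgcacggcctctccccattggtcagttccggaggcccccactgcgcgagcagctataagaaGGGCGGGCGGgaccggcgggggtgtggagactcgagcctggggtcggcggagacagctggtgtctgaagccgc

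The promoters of EDNRA, CCDC102A and TLR4 hold 1 GC box each, that of SLC17A7 holds 3, and those of RTBDN and PLIN5 hold 2 each. The letters CCAAT on either strand (ATTGG), the CCAAT box known as a site of the factor NF-Y, were found in SLC17A7, RTBDN, PLIN5 and TLR4, and not in this window of EDNRA or CCDC102A. Neither TATAAA nor the E-box CACGTG was found in the 6 windows. These are matches of letters and not measured sites.

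The same search covered 8317 tested genes with a single start in the promoter table. A CCAAT box was in 45.2% of the promoters of genes lower under E6R, 32.1% of those of genes higher and 37.2% of those not called. All 22114 single-start promoters of the table held one in 36.2%. A GC box was in 78.0% of the lower, 68.8% of the higher and 68.5% of the uncalled genes, and in 43.0% of the whole table. Both searches covered both strands, and the letters of the boxes can share bases, in which case both were counted. Within levels of expression above 1 CPM under DMSO, the lower genes again held both boxes more often than the higher genes. For both boxes the uncalled genes lay above the higher genes there, for the GC box with 75.2% against 70.9% at 10 to 100 CPM. A CCAAT box was in 48.0% of the lower, 38.8% of the uncalled and 32.2% of the higher genes at 10 to 100 CPM. Above 100 CPM the shares were 50.9%, 43.6% and 35.0%. With the first listed start of 11607 genes the shares were 43.8% of the lower and 31.0% of the higher genes. TATAAA was in 5.57% of the lower and 5.98% of the higher genes, and the E-box in 8.70% and 10.9%. The median GC content of the promoters was 67.3% for the lower, 65.3% for the higher and 64.7% for the uncalled genes. At 1 to 10 CPM under DMSO it was 68.3%, 62.3% and 62.7%. Whether the shares of the GC box follow this base composition was not tested. Promoters were neither sampled at random nor independent, and no test was run on these shares.

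**Figure D1:**
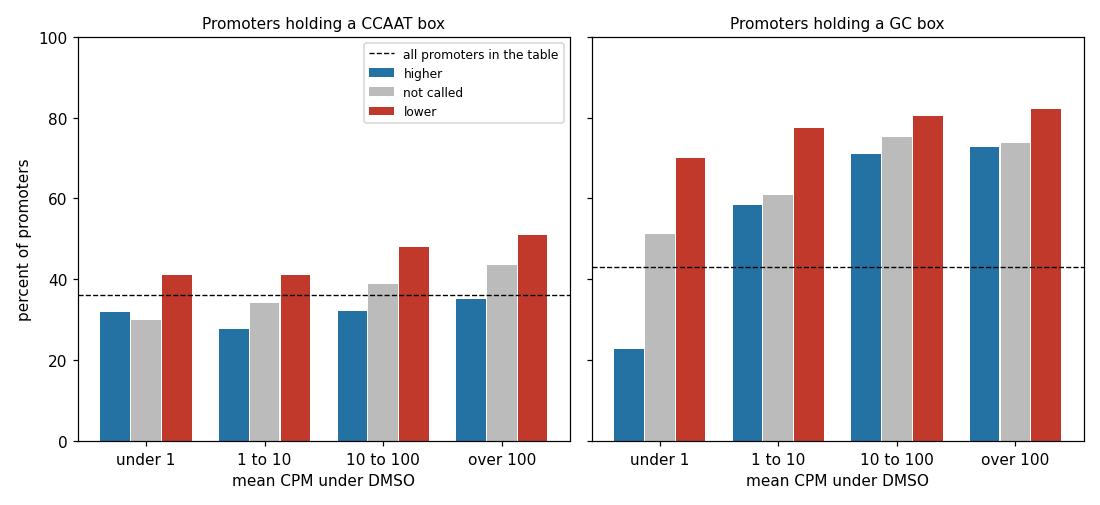
Percent of promoters (250 bases before to 50 after the start) that hold a CCAAT box (left) or a GC box (right), by mean CPM under DMSO, for genes higher, lower or not called in E6R against TSA. In each class above 1 CPM the lower genes have the highest share for both boxes, for example 50.9% against 35.0% of the higher genes for the CCAAT box above 100 CPM. The class under 1 CPM holds 22 promoters of higher genes and is not read. The dashed line is the share in the whole table.

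EDNRA, the endothelin A receptor (chr4:147480917-147544954), had 82.2 and 29.9 CPM in the E6R libraries and 0.304 and 0.958 CPM in the TSA libraries. DMSO lay at 30.4 and 11.1 CPM, so the TSA libraries were the low ones, and E6R and DMSO overlapped. CCDC102A, a coiled-coil protein gene (chr16:57512178-57536599), had 111 and 87.9 CPM under E6R and 1.44 and 1.31 CPM under TSA. TLR4, the receptor for bacterial lipopolysaccharide (chr9:117704175-117724730), had 54.3 and 43.3 CPM under E6R and 1.29 and 0.522 CPM under TSA. Both E6R libraries of CCDC102A and of TLR4 lay above both DMSO libraries, which held 52.5 and 31.4 CPM and 22.5 and 21.99 CPM. The fitted log2 differences were 6.48 for EDNRA (SE 0.81, adjusted p = 0.00111), 6.16 for CCDC102A (SE 0.36, adjusted p = 0.000228) and 5.71 for TLR4 (SE 0.40, adjusted p = 0.000232). The set of 12 largest rises also held the neurotransmitter transporter SLC6A2, the transcription factor TFAP2B, the ubiquitin ligase MARCH11, CYB561, the potassium channel subunit KCNAB1, the noncoding SCAT8, PRRT4, the apelin receptor APLNR and the angiopoietin gene ANGPT1. PRRT4 had 107 and 106 CPM under E6R, 3.49 and 3.22 under TSA and 105 and 92.8 under DMSO. KCNAB1 had 194 and 196 CPM under E6R against 5.85 and 4.44 under TSA and 77.3 and 40.9 under DMSO.

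Replicates of a group were far apart for some of these genes. APLNR had 1008 and 265 CPM under E6R and 31.6 and 12.8 CPM under TSA, and without TSA replicate 2 its adjusted p was 0.0648. ANGPT1 had 73.3 and 7.34 CPM under E6R and 1.29 and 1.05 CPM under TSA. Its adjusted p was 0.0224 with all libraries, 0.145 without TSA replicate 2, 0.124 without TSA replicate 1 and 0.0608 without E6R replicate 1, where the log2 difference fell from 5.09 to 2.71.

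SLC17A7, a vesicular glutamate transporter (chr19:49429401-49442360), had 59.8 and 50.9 CPM under TSA and 0.126 and 0.263 CPM under E6R. The E6R values rest on 2 and 7 UMIs, and the ratio of UMIs per depth of TSA over E6R was 232 with a counting interval from 122 to 508. RTBDN, a riboflavin-binding protein gene (chr19:12825478-12835428), had 35.3 and 47.9 CPM under TSA and 0.253 and 0.564 CPM under E6R, and it overlaps HOOK2 on the same strand. PLIN5, a coat protein of lipid droplets (chr19:4522531-4535224), had 125 and 125 CPM under TSA and 0.885 and 1.81 CPM under E6R. In all 3 genes the E6R libraries lay near or below the DMSO libraries, of which the highest was 4.97 CPM for PLIN5. TCN2, the vitamin B12 carrier transcobalamin (chr22:30606838-30627278), had 98.7 and 95.9 CPM under TSA and 0.948 and 1.43 under E6R. REEP6, an endoplasmic reticulum shaping protein, had 355 and 346 CPM under TSA, 10.3 and 20.7 under E6R and 18.5 and 25.6 under DMSO. The clone-named AL606500.1 had 1847 and 4485 UMIs under TSA and 1 UMI in each E6R library. BAIAP3, STAC2, CFD, MIR7-3HG, DHRS2 and AL356804.1 completed the 12 largest falls. MIR7-3HG, the host transcript of a miR-7 hairpin, had 0.442 and 8.35 CPM under E6R and 170 and 193 under TSA, and without TSA replicate 2 its adjusted p was 0.0569.

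**Figure D2:**
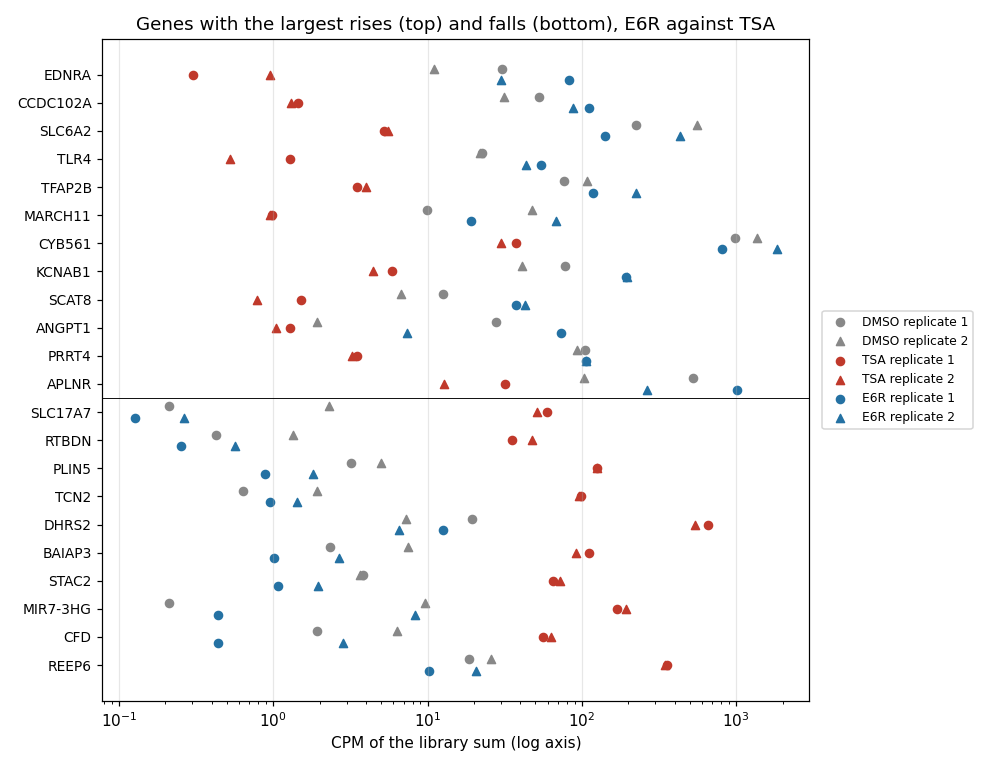
CPM of each library (log axis; circles replicate 1, triangles replicate 2) for the 12 genes with the largest rises (above the line) and 10 of the 12 with the largest falls; the 2 clone-named falls are left out. In every gene shown the TSA libraries stand apart from the E6R libraries, as for EDNRA at 0.304 and 0.958 against 82.2 and 29.9 CPM.

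Genes with at least 100 CPM in each of the 4 libraries gave smaller differences. CCND1, the G1 cyclin D1, had 1418 and 1422 CPM under E6R and 138 and 125 CPM under TSA, with DMSO at 926 and 1082 (log2 difference 3.43, SE 0.22, adjusted p = 0.000228). The cell adhesion gene NRCAM (2.93), the docking protein gene DOK4 (2.32), the chaperonin partner HSPE1 (2.08), the nuclear transport GTPase RAN (2.08) and the tropomyosin TPM4 (2.02) followed on the log2 scale. The largest falls among these abundant genes were in noncoding and mitochondrial transcripts. AD000090.1, a transcript antisense to ATP4A, had 2746 and 9366 CPM under TSA and 371 and 339 under E6R. AL627171.2 had 3323 and 6173 CPM under TSA and 215 and 480 under E6R, and it contains the signal recognition particle RNA gene RN7SL2 on the same strand, so its reads cannot be assigned to either. MTRNR2L12, which has a near copy in the mitochondrial ribosomal RNA and is therefore uncertain, had 12930 and 31430 CPM under TSA and 4980 and 2099 under E6R. Without TSA replicate 2 its adjusted p was 0.0929. In these 3 transcripts TSA replicate 2 was well above TSA replicate 1.

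The pathways were described with 43 gene lists holding 911 genes, of which 887 were tested, 242 were higher and 166 lower under E6R than under TSA. A count is read against the background of 18.7% higher and 19.5% lower over all genes tested. The background was lower with a TSA replicate left out: 6.56% higher and 7.88% lower without TSA replicate 2, and 9.06% and 8.61% without TSA replicate 1. It was 17.3% and 15.7% without E6R replicate 1 and 17.4% and 17.8% without E6R replicate 2.

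**Figure D3:**
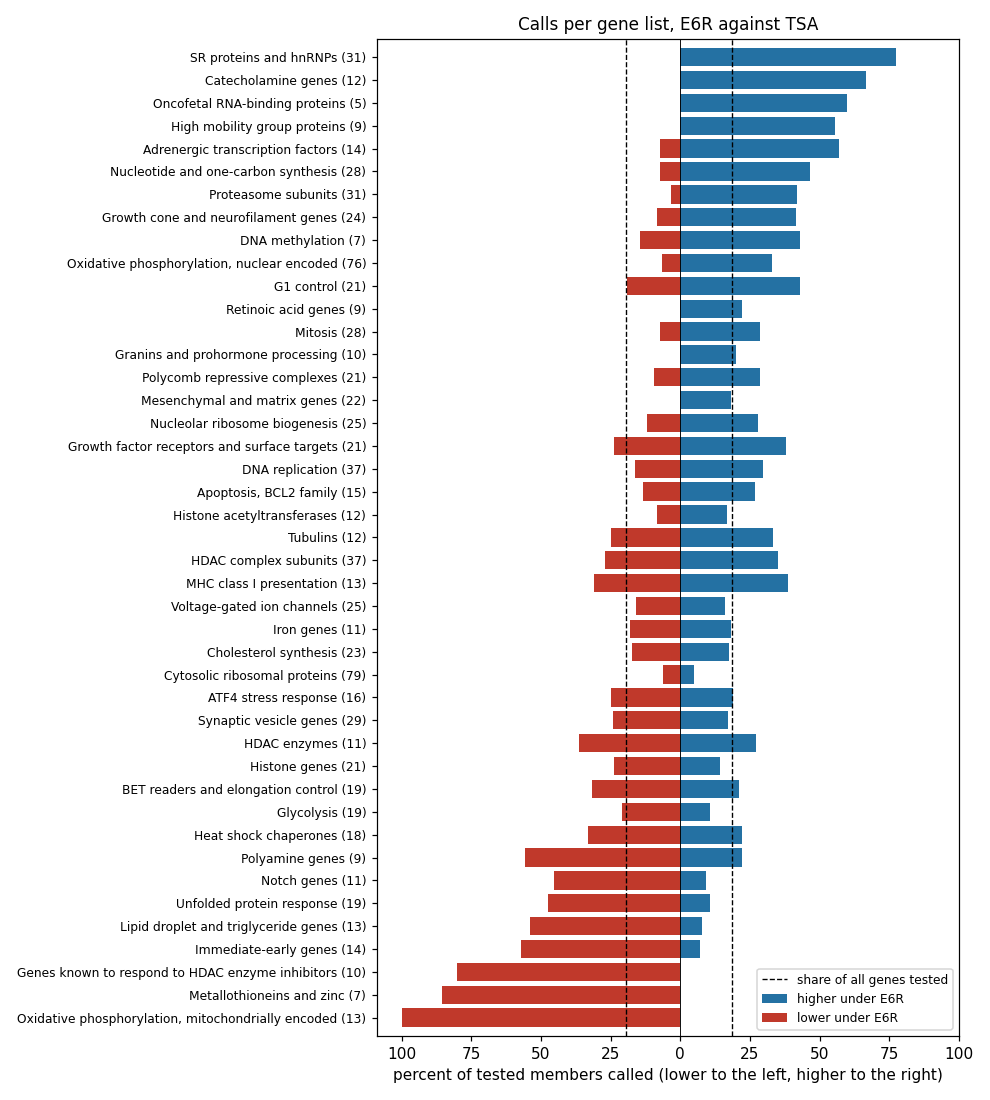
Percent of tested members called lower (left) and higher (right) under E6R than under TSA in each of the 43 lists, with the number tested in brackets; dashed lines are the shares over all genes tested, 19.5% and 18.7%. SR proteins and hnRNPs stand at the top with 24 of 31 higher, and the mitochondrially encoded genes at the bottom with 13 of 13 lower.

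The HDAC genes came first. HDAC1 had 74.3 and 78.2 CPM under E6R and 154 and 159 CPM under TSA, against 66.3 and 51.8 under DMSO. Its E6R libraries lay below both TSA libraries (log2 difference -1.04, SE 0.19, adjusted p = 0.00494). HDAC3 had 33.7 and 35.4 CPM under E6R, 121 and 104 under TSA and 34.0 and 44.2 under DMSO (-1.70, SE 0.21, adjusted p = 0.00105). HDAC2 had 343 and 289 CPM under E6R and 291 and 277 under TSA, and did not pass (0.16, SE 0.21, adjusted p = 0.580). Over the 11 HDAC genes tested, 3 were higher and 4 lower. The class II genes HDAC7 and HDAC9 and the class I gene HDAC8 were the higher ones. HDAC9 had 56.6 and 32.1 CPM under E6R and 5.01 and 3.05 under TSA (3.45, adjusted p = 0.00144). The lower ones were HDAC1, HDAC3, HDAC6 and HDAC11, of which HDAC6, the cytoplasmic tubulin deacetylase, had an adjusted p of 0.0520 without TSA replicate 2, and HDAC11 had 0.192 without TSA replicate 1. The call of HDAC8 (0.71) was lost without any 1 of the 4 treated libraries, with adjusted p from 0.0530 to 0.256.

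Subunits of the HDAC complexes were called in both directions. Of 37 subunits, 13 were higher and 10 lower. In NuRD, the remodelling complex, 6 of 11 were higher and 0 lower, with CHD3, a helicase, at 112 and 84.6 CPM under E6R and 33.8 and 39.8 under TSA. In SIN3, 7 of 11 were lower and 1 higher: the scaffold SIN3A had 57.1 and 41.8 CPM under E6R and 120 and 146 under TSA, and SAP130 had 22.6 and 21.7 against 60.8 and 67.0. SAP30 was the higher member (0.89, adjusted p = 0.0155), with an adjusted p of 0.127 without TSA replicate 2 and 0.0804 without TSA replicate 1. Of the 5 NCoR/SMRT genes 3 were higher, led by TBL1XR1, an exchange factor of the complex, with 216 and 154 CPM under E6R and 35.9 and 23.4 under TSA (2.64, SE 0.30, adjusted p = 0.000798). GPS2 of that complex was lower (-1.57). In CoREST, HMG20B was lower at 64.7 and 45.1 CPM against 229 and 286. NuRD gave 2 higher when TSA replicate 2 was left out, 1 when TSA replicate 1 was, and 5 higher and 1 lower without E6R replicate 1. SIN3 gave 3 lower and 0 higher without either TSA replicate, and 4 lower without E6R replicate 2. CoREST gave 3 higher and 1 lower with all libraries, and 0 and 1 without either TSA replicate. The counts of the whole list were 4 higher and 5 lower without TSA replicate 2, and 3 higher and 5 lower without TSA replicate 1. Whether the complexes differ from each other was not tested.

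Genes known to respond to enzymatic HDAC inhibitors were lower under E6R than under TSA. Of 10 tested, 8 were lower and 0 higher. The members were chosen with earlier results of these data known, so the count describes these genes and not the class. DHRS2, a short-chain dehydrogenase gene known for its induction by such inhibitors (chr14:23630115-23645639), had 655 and 539 CPM under TSA and 12.6 and 6.51 CPM under E6R, with DMSO at 19.6 and 7.27. H1F0, the linker histone variant of resting cells, had 891 and 1489 CPM under TSA and 70.7 and 75.2 under E6R, with DMSO at 55.9 and 85.3. SAT1, which acetylates polyamines, had 300 and 237 CPM under TSA and 40.7 and 24.1 under E6R. GADD45B, a stress-response gene, had 158 and 114 CPM under TSA and 19.5 and 14.5 under E6R. In each of the 4 genes the E6R libraries lay within or close to the DMSO range and far from TSA. TXNIP, GSN, RHOB and CLU were the other lower members, and CLU lost its call without either TSA replicate (adjusted p = 0.151 without replicate 1 and 0.141 without replicate 2), without E6R replicate 2 (0.0911) and without either DMSO replicate (0.0562 and 0.0628). TGFBR2 (log2 difference 0.73) and KLF6 (-0.22) did not pass, and TGFBR2 passed as higher without E6R replicate 2 (1.54, adjusted p = 0.00712). The list had a median log2 fold change of -2.20, with 2.28 for TSA against DMSO and 0.16 for E6R against DMSO. Leaving out either TSA replicate, 7 of the 10 were lower in each case. CDKN1A, the CDK inhibitor p21 and a textbook target of these drugs, was kept outside this list: it had 87.4 CPM in E6R replicate 2 and in TSA replicate 2, and 128.5 in TSA replicate 1 against 29 in E6R replicate 1, with DMSO at 20.4 and 95.1, and did not pass (-0.89, SE 0.68, adjusted p = 0.332). It passed in 1 of the 23 alternatives, without a low-count filter (adjusted p = 0.0475).

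Metallothioneins, small metal-binding proteins, and their regulators were lower in 6 of 7 tested. Of 9 metallothioneins listed, 5 were tested, and all 5 were lower. MT2A had 83.0 and 74.6 CPM under TSA and 14.7 and 6.58 under E6R, with DMSO at 12.1 and 7.84. MTF1, the metal-responsive factor of these genes, had 37.7 and 38.0 CPM under TSA and 16.1 and 13.1 under E6R. MT1X, MT1F, MT1G and MT3, named after their values were seen, stood at 30.3 and 24.6, 3.04 and 3.13, 4.56 and 5.22, and 5.24 and 6.53 CPM under TSA, and below 6 CPM in each E6R library. That bound is above both TSA values of MT1F and MT1G and above the 5.24 CPM of MT3, so it does not itself separate the groups for them. As in every gene called lower, both E6R libraries lay below both TSA libraries in each of them. Members this low under TSA may have entered the test through the TSA libraries alone. Only a lower call was then open to them, so nothing is read from their calls. Metallothionein genes are close copies of each other, so the split of reads among them is uncertain. All 6 calls were also made without either TSA replicate.

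Immediate-early genes, transcribed within minutes of a stimulus, were lower in 8 of 14 and higher in 1. FOS had 234 and 247 CPM under TSA and 15.8 and 14.8 under E6R, with DMSO at 23.2 and 6.12. EGR1 had 339 and 352 CPM under TSA and 54.7 and 26.8 under E6R, with DMSO at 104 and 40.6. NR4A1, a nuclear receptor, was at 56.6 and 53.8 against 13.5 and 14.4. FOSL2 was the higher one, at 54.5 and 13.2 CPM against 9.42 and 7.66, and did not pass without TSA replicate 1, TSA replicate 2 or E6R replicate 1 (adjusted p = 0.116, 0.168 and 0.116). JUN did not pass (log2 difference -0.40). With TSA replicate 2 left out, 7 of the 14 were lower and 0 higher.

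Lipid droplet and triglyceride genes were lower in 7 of 13 and higher in 1. Besides PLIN5, the lipase PNPLA2 had 34.0 and 47.3 CPM under TSA and 3.35 and 4.63 under E6R. PLIN3 had 453 and 359 CPM under TSA and 112 and 85.6 under E6R. The acyltransferase DGAT1 had 40.1 and 32.3 against 11.2 and 12.6. PLIN2, the coat protein of most cell types, was in the opposite direction, at 33.5 and 33.6 CPM under E6R and 10.03 and 8.707 under TSA, with DMSO at 14.9 and 18.7 (1.84, SE 0.25, adjusted p = 0.00147). The list's count was 4 lower and 1 higher without TSA replicate 2. Polyamine genes were lower in 5 of 9 and higher in 2. ODC1, the rate-limiting enzyme of polyamine synthesis, had 251 and 238 CPM under E6R and 1102 and 1112 under TSA, with DMSO at 194 and 255. The list gave 0 higher and 4 lower without TSA replicate 2, and 0 and 2 without TSA replicate 1. Inhibitors of ODC1, the antizymes OAZ1 and OAZ2, were lower as well (-1.14 and -1.02), and OAZ1 had an adjusted p of 0.0537 without TSA replicate 1. SRM, spermidine synthase, was higher (0.90), with an adjusted p of 0.220 without TSA replicate 2, 0.0760 without TSA replicate 1 and 0.122 without E6R replicate 2.

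The unfolded protein response of the endoplasmic reticulum was lower in 9 of 19 and higher in 2. The degradation ligase SYVN1 had 7.14 and 8.13 CPM under E6R and 35.9 and 41.8 under TSA. Calreticulin, CALR, had 784 and 1084 CPM under E6R and 2316 and 2771 under TSA, with DMSO at 508 and 608. HYOU1 (-1.43) and SEL1L (-1.43) were lower, with an adjusted p of 0.0740 for HYOU1 without TSA replicate 2 and 0.0535 for SEL1L without TSA replicate 1. With total counts in place of TMM scaling, 7 were lower and 3 higher. The lead of lower over higher members was also smaller with either TSA replicate left out, and smallest without TSA replicate 1. For HSPA5, another lower member, the log2 difference ran from -0.57 without E6R replicate 1 to -0.82 without TSA replicate 2. Notch genes were lower in 5 of 11, among them the list member HES6 (111 to 142 CPM under TSA, 24.8 and 40.3 under E6R) and the receptors NOTCH2 and NOTCH3. The median of the list changed sign when a mean of 20 CPM was required. HEY1, a repressor downstream of Notch, was higher at 142 and 143 CPM against 37.5 and 37.6 (1.92, adjusted p = 0.000533).

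**Figure D4:**
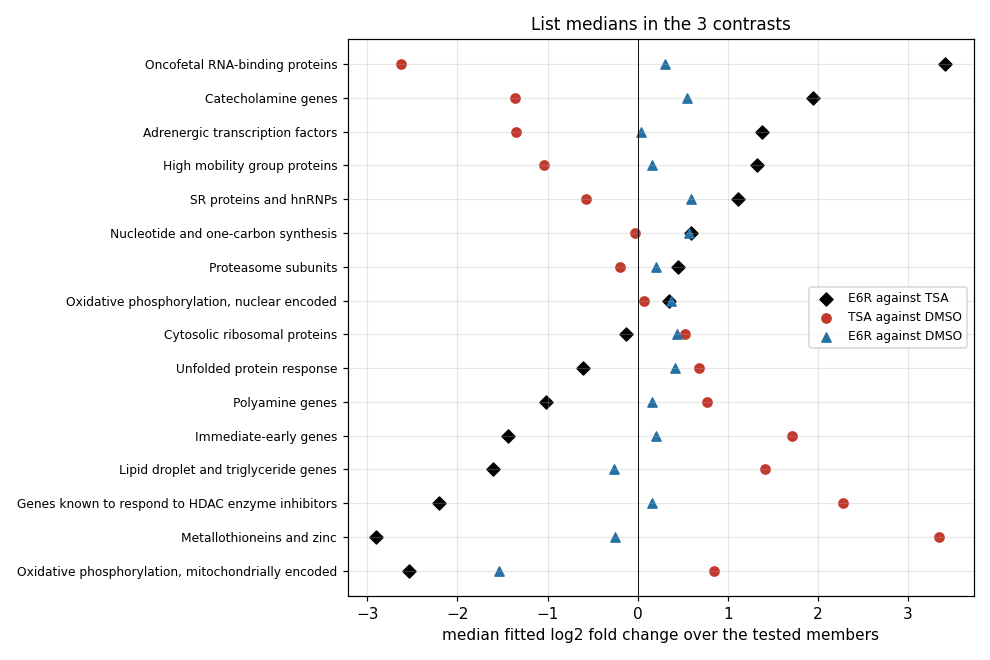
Median fitted log2 fold change over the tested members of 16 lists, for E6R against TSA (diamonds), TSA against DMSO (circles) and E6R against DMSO (triangles); the contrasts share libraries. Most lists have the TSA circle on the opposite side of 0 from the diamond. The E6R triangle is at -1.54 for the mitochondrially encoded genes and between -0.27 and 0.59 for the others. It is as far from 0 as the circle, or farther, in some lists. Triangle and circle are at 0.573 and -0.027 for nucleotide synthesis, 0.365 and 0.068 for nuclear oxidative phosphorylation, and 0.593 and -0.573 for SR proteins and hnRNPs.

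In the other direction, the adrenergic transcription factors that define the sympathetic identity of the line were higher under E6R than under TSA in 8 of 14, and lower in 1. TFAP2B had 119 and 223 CPM under E6R, 3.49 and 4.01 under TSA and 76.9 and 108 under DMSO (log2 difference 5.51, SE 0.39, adjusted p = 0.000232). TBX2 had 204 and 145 CPM under E6R and 19.6 and 18.6 under TSA, and PHOX2A had 74.9 and 130 against 14.4 and 13.2. The factors did not move as a block. GATA3 had 122 and 112 CPM under E6R and 125 and 121 under TSA, and HAND2 had 274 and 279 against 255 and 355, and neither passed (-0.07 and -0.14). SOX11 was the lower one and was under 2 CPM in every library, and its call was lost without TSA replicate 1, TSA replicate 2, E6R replicate 1 or either DMSO replicate (adjusted p from 0.0702 to 0.412). MYCN, the amplified oncogene of this line, had 733 and 657 CPM under E6R, 215 and 291 under TSA and 394 and 313 under DMSO (1.46, SE 0.23, adjusted p = 0.00273). The list without TSA replicate 2 gave 7 higher and 0 lower, and without TSA replicate 1 it gave 6 and 0.

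Catecholamine genes were higher in 8 of 12 and lower in 0. SLC6A2, the noradrenaline transporter (chr16:55655604-55706192), had 140 and 435 CPM under E6R, 5.24 and 5.57 under TSA and 226 and 555 under DMSO. CYB561, which passes electrons to dopamine hydroxylation in the vesicle (chr17:63432304-63446378), had 812 and 1843 CPM under E6R, 37.2 and 30.04 under TSA and 988 and 1367 under DMSO. DDC, the decarboxylase that makes dopamine, had 660 and 540 CPM under E6R and 110 and 92.8 under TSA. In these 3 genes both TSA libraries lay below all E6R and DMSO libraries. TH, the rate-limiting hydroxylase, had 35.8 and 153 CPM under E6R and 23.9 and 14.3 under TSA (2.31, SE 0.69, adjusted p = 0.0312), and its adjusted p was 0.192 without TSA replicate 2, 0.0951 without TSA replicate 1 and 0.147 without E6R replicate 2. DBH, which turns dopamine into noradrenaline, had 224 and 1145 CPM under E6R and 162 and 158 under TSA, and did not pass (2.10, SE 0.78, adjusted p = 0.0652). It passed without E6R replicate 1 (adjusted p = 0.00288) and without either DMSO replicate (0.0357 and 0.0376). PTS, QDPR and SLC18A1 were also higher. Leaving out TSA replicate 2 left 5 of the 12 higher, with an adjusted p of 0.0633 for PTS and 0.0784 for QDPR. The granins, which are stored with catecholamines, gave 2 higher and 0 lower of 10, and 0 and 0 without TSA replicate 2.

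Other neuronal genes were mixed. Growth cone and neurofilament genes were higher in 10 of 24 and lower in 2: the RNA-binding protein ELAVL4 had 110 and 156 CPM under E6R and 15.3 and 11.9 under TSA, and the intermediate filament PRPH had 230 and 371 against 54.2 and 35.4. NCAM1, the adhesion molecule, was lower at 500 and 919 CPM against 1854 and 1829 (-1.38, adjusted p = 0.00905, and 0.0523 without TSA replicate 2). Synaptic vesicle genes gave 5 higher and 7 lower of 29, with SYN1 at 2.97 and 12.4 CPM under E6R and 98.1 and 121 under TSA, and STX1A at 4.93 and 10.1 against 41.4 and 62.0. Without either TSA replicate the synaptic counts were 0 higher and 5 lower, and without E6R replicate 2 they were 4 and 12. Voltage-gated channels gave 4 and 4 of 25, among them CACNA2D1, a calcium channel subunit, at 125 and 87.6 CPM under E6R and 20.1 and 19.9 under TSA. Among 21 receptors and surface targets 8 were higher and 5 lower. CHRNA3, a nicotinic receptor subunit, had 294 and 296 CPM under E6R, 12.9 and 12.3 under TSA and 358 and 250 under DMSO. CD276, an immunotherapy target, had 146 and 153 CPM against 55.8 and 41.0. NGFR, the low-affinity neurotrophin receptor, was lower at 11.44 and 11.02 CPM against 63.5 and 55.7. Leaving out TSA replicate 2 gave 6 higher and 1 lower growth cone genes, 2 and 1 channel genes, and 6 and 2 receptors. Leaving out TSA replicate 1 gave 7 and 2, 3 and 1, and 7 and 1. The median of the receptor list was 0.47, and it turned to -0.16 without TSA replicate 2 and to -0.12 without E6R replicate 1.

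SR proteins and hnRNPs, which choose splice sites and package nascent RNA, gave the largest share of higher genes, 24 of 31, with 0 lower. HNRNPH3 had 201 and 158 CPM under E6R and 30.2 and 38.1 under TSA, with DMSO at 141 and 116. HNRNPDL had 262 and 256 CPM under E6R and 62.6 and 52.3 under TSA, HNRNPD had 528 and 444 against 145 and 112, and HNRNPA1 had 472 and 293 against 119 and 82.4. Both TSA libraries lay below both DMSO libraries in these 4 genes. The 7 members that did not pass ran from -0.64 for HNRNPH2 to 0.53 for SRSF6 and HNRNPF on the log2 scale. HNRNPH2 passed as lower without E6R replicate 1 (adjusted p = 0.0101), and SRSF6 and HNRNPF passed as higher without E6R replicate 2 (0.0378 and 0.0443), HNRNPF also without DMSO replicate 2 (0.0483). The list had a median of 1.11, with -0.57 for TSA against DMSO and 0.59 for E6R against DMSO. The counts without TSA replicate 2 were 14 higher and 0 lower, and without TSA replicate 1, 17 and 0.

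High mobility group genes, which encode abundant architectural proteins of chromatin, were higher in 5 of 9 and lower in 0, with HMGB1 at 1061 and 1247 CPM under E6R, 389 and 391.7 under TSA and 1075 and 1001 under DMSO. HMGB3 had 173 and 120 CPM under E6R and 35.7 and 32.0 under TSA. Of 5 oncofetal RNA-binding genes 3 were higher. IGF2BP1, which stabilises target messengers, had 140 and 147 CPM under E6R, 6.61 and 8.18 under TSA and 128 and 105 under DMSO (log2 difference 4.28, SE 0.23, adjusted p = 0.000228). LIN28B, the repressor of let-7 processing, had 66.5 and 68.0 CPM against 5.70 and 6.10, and IGF2BP3 had 183 and 159 against 17.5 and 14.5. These 3 calls were also made when either TSA replicate was left out. HMGB1, HNRNPA1, NPM1, tubulins and ribosomal proteins have processed copies in the genome, so their counts are uncertain. LIN28A and IGF2BP2 did not pass and were under 5 CPM.

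Other writers and readers of chromatin gave smaller counts. Polycomb genes were higher in 6 of 21 and lower in 2, led by PHF19, an accessory subunit of PRC2, at 99.2 and 144 CPM under E6R and 12.8 and 9.67 under TSA. DNA methylation genes gave 3 higher of 7, with the writer DNMT3A at 187 and 142 CPM against 47.9 and 52.0 and the eraser TET1 at 41.4 and 31.0 against 12.7 and 13.5, and 1 lower, DNMT3B (-2.17). Among 19 genes of BET readers and elongation control, 4 were higher and 6 lower. HEXIM1, the inhibitor of the elongation kinase P-TEFb and a known responder to BET and HDAC inhibitors, had 26.2 and 20.5 CPM under E6R and 72.9 and 77.0 under TSA, while MEPCE, which caps the 7SK RNA of the same complex, was higher at 44.9 and 40.3 against 12.8 and 12.5. Histone genes gave 3 higher and 5 lower of 21. The macroH2A gene H2AFY2 had 48.3 and 58.8 CPM under E6R and 3.12 and 5.49 under TSA, and the linker histone H1FX was lower at 214 and 167 against 457 and 383. Histone acetyltransferases gave 2 higher and 1 lower of 12. Without TSA replicate 2 the higher and lower counts were 2 and 0 for Polycomb, 3 and 1 for DNA methylation, 2 and 2 for BET readers and elongation, 1 and 1 for histone genes and 0 and 0 for acetyltransferases. Without TSA replicate 1 they were 5 and 1, 2 and 1, 1 and 3, 2 and 1, and 0 and 0 in the same order.

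Cell cycle genes were called in both directions. Of 21 G1 genes, 9 were higher and 4 lower. CDK6, the partner kinase of cyclin D1, had 159 and 143 CPM under E6R and 32.0 and 31.5 under TSA, with DMSO at 195 and 152. E2F3 had 69.7 and 62.7 CPM against 15.7 and 15.4, and CDK4 had 236 and 301 against 113 and 98.6. CDKN2D, an inhibitor of these kinases, was lower at 14.4 and 12.7 CPM against 59.6 and 35.6. Replication genes gave 11 higher and 6 lower of 37, with GINS4 at 42.6 and 51.7 CPM under E6R and 258 and 251 under TSA. The replication count without TSA replicate 2 was 3 higher and 1 lower, and that without TSA replicate 1 was 6 and 4. Mitosis genes gave 8 higher and 2 lower of 28, including the kinase PLK1 at 127 and 152 CPM against 51.0 and 55.5 and the checkpoint kinase BUB1, lower at 43.0 and 46.3 against 117 and 130. Leaving out either TSA replicate gave 4 higher and 1 lower mitosis genes and 6 higher and 1 lower G1 genes. MKI67, the proliferation marker, had 567 and 626 CPM under E6R and 501 and 675 under TSA (0.02, SE 0.22, adjusted p = 0.946). Among 15 BCL2-family genes 4 were higher and 2 lower, which became 2 and 1 without TSA replicate 2 and 3 and 0 without TSA replicate 1. BCL2, which blocks apoptosis, had 92.0 and 30.4 CPM under E6R, 3.27 and 3.22 under TSA and 61.6 and 25.3 under DMSO, and BID, a death-promoting partner, had 97.5 and 86.2 against 10.3 and 7.49.

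Nucleotide and one-carbon synthesis was higher in 13 of 28 and lower in 2. TYMS, thymidylate synthase and a known target of repression by HDAC inhibitors, had 115 and 123 CPM under E6R, 9.88 and 9.67 under TSA and 71.4 and 72.7 under DMSO (log2 difference 3.60, SE 0.20, adjusted p = 0.000228). TK1, thymidine kinase of the salvage route to the same nucleotide, was lower at 136 and 192 CPM against 440 and 376. CTPS1 had 88.9 and 108 against 38.4 and 43.0. Without TSA replicate 2 the counts were 4 higher and 1 lower, and without TSA replicate 1 they were 7 and 2. Proteasome subunits were higher in 13 of 31 and lower in 1: the core gave 8 of 14 higher, among them PSMB5, the bortezomib target, at 547 and 458 CPM against 205 and 118. PSMD2 of the cap was lower at 647 and 544 against 1387 and 1274. Leaving out TSA replicate 2 gave 4 higher and 1 lower, and leaving out TSA replicate 1 gave 7 and 1. Nucleolar genes gave 7 higher and 3 lower of 25, 5 and 0 without TSA replicate 2 and 5 and 1 without TSA replicate 1, with DKC1 at 289 and 416 CPM against 110 and 103 and NPM1 at 1780 and 1734 against 725 and 780.

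Oxidative phosphorylation genes differed by the genome that encodes them and, among the nuclear genes, by complex. All 13 genes of the mitochondrial genome were lower under E6R than under TSA, with log2 differences from -2.88 to -2.07. MT-CO1, a subunit of cytochrome oxidase, had 1566 and 1774 CPM under E6R, 8659 and 15870 under TSA and 4741 and 7892 under DMSO. MT-ATP6 had 2446 and 1892 CPM under E6R and 10540 and 16980 under TSA. MT-ND3 had 368 and 333 against 1834 and 2930. The E6R libraries lay below the DMSO libraries as well, and the median of the 13 genes was -1.54 for E6R against DMSO and 0.85 for TSA against DMSO. Cells were limited to 20% mitochondrial UMIs in all libraries, and TSA replicate 2 had the highest share. Without it 12 of the 13 were lower. Of 76 nuclear genes of the same complexes, 25 were higher (32.9%) and 5 lower (6.58%), beside 18.7% and 19.5% over all genes tested. Complex I held most of these, with 18 of 38 higher and 3 lower, and NDUFA9 had 168 and 148 CPM under E6R and 57.1 and 35.7 under TSA. NDUFAB1, the acyl carrier protein of complex I, had 190 and 206 CPM against 71.4 and 39.3. In complex IV, 1 of 10 was higher and 1 lower. Complex II gave 1 of 4 higher, complex III 2 of 9 and ATP synthase 3 of 15. Outside complex I the shares of higher genes were 10% to 25%, around the share over all genes. Without TSA replicate 2 the nuclear count was 10 higher and 1 lower, and without TSA replicate 1 it was 15 and 2. Leaving mitochondrial and ribosomal protein genes out of the fit gave 6369 calls over all genes.

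**Figure D5:**
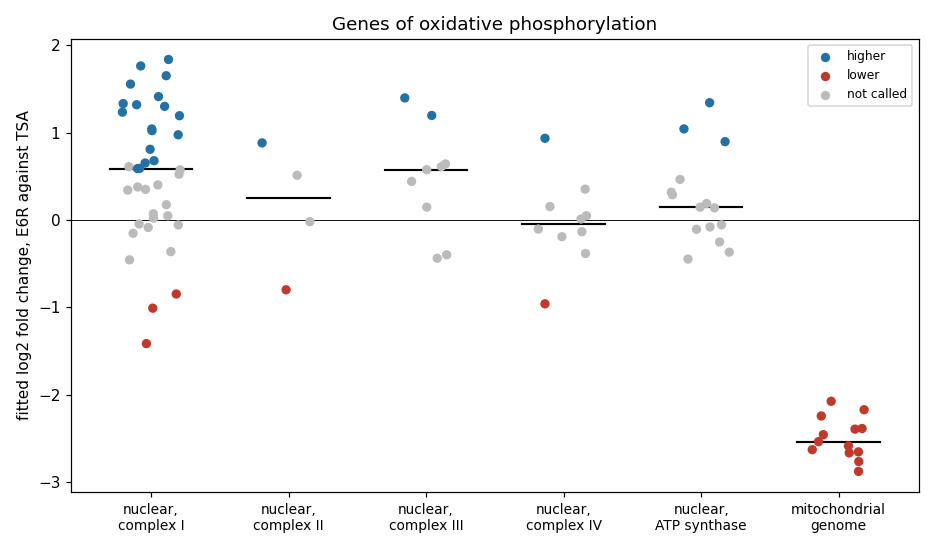
Fitted log2 fold change of E6R against TSA for each nuclear gene of the respiratory complexes and for the 13 genes of the mitochondrial genome, coloured by call; horizontal bars are medians and the sideways scatter has no meaning. The mitochondrial genes lie between -2.88 and -2.07 and share no value with the nuclear genes, whose lowest is -1.41.

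The remaining lists ranged from below to above the 38.2% called over all genes. Cytosolic ribosomal proteins gave 4 higher and 5 lower of 79, or 11.4% called, with a median of -0.13 that turned to 0.05 with total counts. RPS27 was the largest of these, at 598 and 787 CPM under E6R and 1880 and 3767 under TSA. Glycolysis gave 2 higher and 4 lower of 19, and ALDOC, the brain form of aldolase, was lower at 12.4 and 12.9 CPM against 119 and 132. Cholesterol synthesis gave 4 and 4 of 23, with the cyclase LSS lower at 34.4 and 29.5 CPM under E6R against 96.2 and 97.2 under TSA. Heat shock chaperones gave 4 higher and 6 lower of 18, or 55.6% called: HSPB1 was higher at 197 and 237 CPM against 52.7 and 59.2, and DNAJB1 was lower at 77.8 and 100 against 321 and 382. The ATF4 response gave 3 higher and 4 lower of 16, with ATF5 at 46.8 and 73.1 CPM against 11.6 and 9.58 and SESN2 at 12.8 and 12.1 against 48.1 and 46.2. Antigen presentation gave 5 higher and 4 lower of 13, or 69.2% called, with TAPBP at 77.6 and 67.9 CPM against 30.08 and 26.03. HLA-E was lower at 70.5 and 27.5 against 313 and 200, with an adjusted p of 0.0620 without TSA replicate 1. Tubulins gave 4 higher and 3 lower of 12, or 58.3% called, with TUBA1B at 1652 and 1562 CPM against 666 and 642 and TUBA4A at 4.17 and 11.3 against 76.2 and 66.4. Mesenchymal and matrix genes gave 4 higher and 0 lower of 22. They gave 4 higher and 7 lower without E6R replicate 1. Leaving out TSA replicate 1 gave 2 and 0 of them, and leaving out TSA replicate 2 gave 0 and 0, so the count rests on single libraries. Retinoic acid genes gave 2 higher and 0 lower of 9, and 0 and 0 without either TSA replicate. Of 11 iron genes 2 were higher and 2 lower, with the sensor ACO1 at 13.0 and 6.21 CPM against 54.5 and 54.4. TFRC, the transferrin receptor, had 314 and 385 CPM under E6R, 198 and 262 under TSA and 55.7 and 47.4 under DMSO. Between E6R and TSA it did not pass (0.60, SE 0.22, adjusted p = 0.0652), and both treatments lay above both DMSO libraries. It passed without E6R replicate 1 (adjusted p = 0.0383) and without DMSO replicate 2 (0.0440), and in 7 of the 23 alternatives in all, with a lowest adjusted p of 0.00354 when no low-count filter was used. With a TSA replicate left out, most of the lists of this paragraph gave fewer calls: without TSA replicate 2 the higher and lower counts were 0 and 2 for ribosomal proteins and for glycolysis, 2 and 2 for cholesterol synthesis and for the ATF4 response, 2 and 5 for heat shock chaperones, 2 and 3 for antigen presentation, 1 and 2 for tubulins and 0 and 1 for iron genes. Without TSA replicate 1 they were 0 and 3 for ribosomal proteins, 2 and 2 for glycolysis, 3 and 1 for cholesterol synthesis, 3 and 2 for the ATF4 response, 2 and 4 for heat shock chaperones, 3 and 1 for antigen presentation, 3 and 3 for tubulins and 0 and 1 for iron genes.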

How the data were processed

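The deposited matrices hold whole-number UMI counts per gene and barcode, not normalized, made with STARsolo 2.7.9a on GRCh38 per the submitters' processing notes; the annotation, the strand rule and the treatment of multimapped reads are not given in the sources used here. Cells were barcodes with at least 500 genes and at most 20% mitochondrial UMIs, without a doublet caller. Counts were summed per library, because cells are not replicates, and all 6 sums were fitted together in edgeR 4.0.16 (R 4.3.3; TMM, filterByExpr, group as the only term, quasi-likelihood test, Benjamini-Hochberg adjustment at 0.05). CPM use TMM library sizes, and SE is the log2 fold change over the root of F. Adjusted p-values come from this test and run over all genes tested. The code was tested on simulated data. Nothing in the labels says that replicates are separate cultures, so p-values measure the spread between these libraries. Intervals cover counting error only, at 95%. Coordinates are from GENCODE on GRCh38.

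Named genes were the 12 largest rises and falls with a mean of at least 20 CPM, the 6 and 6 with at least 100 CPM in each of the 4 libraries, up to 4 called members per list, and HDAC1, HDAC2, HDAC3, CDKN1A, MYCN, MKI67 and TFRC. Further members were named to describe their lists, and a few members are not reported here. The comparison, the lists and the rule were chosen with earlier results of these data known. Scaling, filters, cell limits, thinning, DESeq2 1.42.0, the replicate block and leaving out each library were tried as alternatives, and leaving out barcodes shared between libraries was added after the data were seen.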

Additional observations from a re-analysis of the deposited data

Results flagged for a closer look

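Barcodes that did not pass as cells were in no comparison, and TSA libraries carried there the transcripts that separated the groups in cells. The mean of the TSA libraries was 391.5 CPM for DHRS2, 238 CPM for REEP6 and 211 CPM for AL606500.1, above both DMSO libraries. All 12 genes with the largest rises and all 12 with the largest falls had groups that did not overlap in these barcodes, in the same direction as in cells. These genes were chosen for groups that did not overlap in cells of the same libraries. In cells, 12166 of the 16763 genes tested had such groups. The share over all genes in these barcodes was not computed, so nothing is read from the count.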

How the results depend on the processing

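No gene called in both the reported fit and an alternative had opposite signs, under the 23 alternatives. Of 185 named genes with a value, 134 passed or failed alike in all of them. The 6408 calls became 3636 (1888 higher, 1748 lower) with a mean of 20 CPM required, 4090 (2068 and 2022) with cells thinned to 1000 UMIs, and 4081 (1957 and 2124) with a fold change of 1.5 tested. Leaving out 1 library gave 2628 to 6385 calls, 1194 to 3374 higher and 1434 to 3201 lower; the lowest were without TSA replicate 2 and the next, 3175, without TSA replicate 1. The replicate block gave 7567 calls, 6391 of them among the 6408; the labels share only a number between groups, and same-numbered deviations from group means had r = 0.166 between E6R and TSA, 0.564 between E6R and DMSO and 0.242 between TSA and DMSO over 7515 genes. With the block, E6R against DMSO gave 19 calls in place of 0. Median log2 differences changed sign for HDAC enzymes (0.063 with total counts, 0.136 with no low-count filter, -0.36 to 0.0051 without 1 library), ribosomal proteins (0.052 and 0.123), Notch genes (0.23 with 20 CPM required), histone genes (-0.53 to 0.052 without 1 library), receptors (-0.16 to 1.19) and iron genes (-0.41 to 0.49). The cause was not tested. DMSO sums were the shallowest, so values of genes low in DMSO are the least precise.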

Other observations

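Chromosomes differed in the direction of the calls. Over all genes tested, 19.5% were lower and 18.7% higher. On chromosome 19, 28.9% of 1212 tested genes were lower under E6R than under TSA and 13.2% were higher, and on chromosome 16, 23.0% of 810 were lower and 13.0% higher. On chromosome 4, 16.2% of 594 genes were lower and 25.4% higher, and on chromosome X, 15.2% of 514 were lower and 24.7% higher. The values are descriptions without a test. Antisense genes were lower in 15.3% of 1222 and higher in 6.46%, both below the shares over all genes tested. Their median level over the 4 libraries was 1.31 CPM, against 24.2 CPM for protein-coding genes. The strand rule of the counting is not given in the sources used here.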
